A study of Homo sapiens with 4 samples.

Results

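The immune checkpoint and NKG2D ligands examined here were 10 genes of the 50868 counted in each library, taken by name: CD274, PDCD1LG2, CD276, PVR, CD47, LGALS9, MICA, MICB, ULBP2 and NT5E. RNA sequencing of A549 cells, an established human lung adenocarcinoma line, gave 2 control libraries and 2 USP12 libraries. The study describes the cells of the latter as overexpressing USP12, a deubiquitinase that removes ubiquitin from other proteins. The study describes lentiviral pLVX vectors carrying tagged USP12. For its A549 transcriptional profiles it marks the control cells as EV, which it defines as a vector control. The library titles name these groups only as A549-CON and A549-USP12. The comparison asks which transcripts differ when the cells carry additional USP12. No label says that libraries 1 and 2 of a group came from separate cultures, so p-values measure only the spread between these libraries, which may be technical.

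Checkpoint ligands sit on the surface of a tumour cell and engage receptors on T cells, natural killer cells or macrophages, mostly to restrain them. MICA, MICB and the ULBP proteins work the other way: cells under stress display them, and the activating receptor NKG2D on natural killer cells and T cells reads them as a sign of danger. NT5E, also called CD73, is a surface enzyme rather than a ligand, and it makes adenosine, which dampens immune cells.

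USP12 was measured at 15.2 and 34.4 CPM (counts scaled to the library total after TMM correction) in control libraries 1 and 2, and at 1740 and 2240 CPM in USP12 libraries 1 and 2. The libraries held between 14280081 and 16305356 counts. The control libraries lay far apart: the SD of their log2 ratio across the 15222 tested genes was 1.32, against 0.62 for the pair of USP12 libraries. The same SD was 1.28 and 1.31 between control 1 and USP12 libraries 1 and 2, and 1.1 and 1.01 between control 2 and these. No pair of libraries thus lay further apart than the 2 controls. The column of control 1 carries another date-like prefix in its header than the other 3 columns, whose meaning is not stated and which cannot be told apart from that library itself. Epithelial markers summed to between 6790 and 12900 CPM. Of the 6, 4 lay lower in both USP12 libraries than in both controls, as did 17.0% of tested genes. KRT19, at 437 and 114 CPM in the controls and 68.7 and 55.9 CPM with USP12, had a log2 fold change of -2.14. KRT7 and CDH1 had log2 fold changes of 0.05 and -0.13, and their groups overlapped. Of 12 leukocyte markers, CD3E, CD3D, MS4A1 and NKG7 were at 0 in every library and PTPRC had at most 1 count. The 12 summed to 123 and 54.6 CPM in the controls and, with USP12, 79.2 and 62.7 CPM, mostly from CD14, CD68 and ITGAM. The 10 fibroblast and endothelial markers summed to 50.0 and 12.5 CPM in the controls and 22.9 and 18.4 CPM with USP12. Within that list, the endothelial genes CDH5, at 136 and 96 counts in the controls and 2 and 5 with USP12, and PECAM1, at 68 and 56 against 4 and 14, were lower with log2 fold changes of -4.94 and -2.69, COL1A1 had 1.10, and DCN was at 0 in every library. CDH5 passed the filter only through the controls, so its direction, though not its size, followed from how it passed. The part of these markers in the ligand values was not tested.

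The DNA before the start sites of 3 genes is shown. MICA and MICB, chosen after their values were seen, share letters of the heat-shock type, and CD274 carries letters of the interferon-response type. Whether these letters bear on the values of any library was not tested. The sequences are from RefSeq on GRCh38.p14, in which 9 of the 10 genes had an entry. Matches were searched on both strands in the 250 bases before the start. MICA and MICB carry the same 8 letters of a heat-shock-type motif, GAANNTTC, here in capitals, 135 to 128 and 139 to 132 bases before the start. MICA is given for chr6:31403449-31403478 and MICB for chr6:31497995-31498024, both on the plus strand. The MICA stretch lies within an exon of longer MICA transcripts, and the MICB stretch lies inside the gene but outside its exons.
MICA: ccagcccactgGAATTTTCtcttccaagcg
MICB: ccaggccgctaGAATTTTCtcttctgaacg
The motif occurred in 5.78% of 35116 promoter windows, and the MICA and MICB windows were identical at 210 of 254 aligned positions, or 82.7%.

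CD274, which encodes PD-L1, is given for chr9:5450292-5450502 on the plus strand, directly before the first annotated base of the gene. The capitals mark a pair of overlapping matches, on the reverse strand, to GAAANNGAA, the type of site bound by interferon regulatory factors.
CD274: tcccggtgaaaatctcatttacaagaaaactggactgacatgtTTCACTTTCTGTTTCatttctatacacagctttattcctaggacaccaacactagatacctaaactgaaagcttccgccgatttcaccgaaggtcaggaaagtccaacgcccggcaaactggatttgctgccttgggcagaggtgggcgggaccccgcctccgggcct
This motif occurred in 6.88% of the windows. The same stretch holds 1 match to TTCNNNGAA, the STAT-type letters, which occurred in 6.57% of the windows and overlapped neither of the others. An NF-kB motif was in 9.96% of windows and matched 1 of the CD276 windows. The windows of CD47, NT5E, ULBP2, LGALS9 and PVR held no match to the 4 motifs, which says only that these letters are not in these bases. The NT5E and LGALS9 windows, and the CD276 window with the NF-kB match, lay in annotated exons of their genes over all 250 bases. The PVR window did so over 112 bases.

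PDCD1LG2 had no count in any library, and the other 9 genes passed the filter on low counts. All 9 had a fold change below 0, with a median log2 fold change of -1.02. Without control 1 the median was -0.33, and CD276, MICA and MICB were at 0.01, 0.37 and 1.65. CD274 passed the filter only through the controls, as both USP12 libraries lay under the cut. Its direction, though not its size, therefore followed from how it passed. The other 8 all lay below 0 with a median of -0.97. Over the whole table, 8165 of the 15222 tested genes lay below 0 and the median was -0.06. None of the 9 reached an adjusted p under 0.05 in edgeR's quasi-likelihood test, as no gene of the table did (0% of those tested), although 1155 genes had an unadjusted p under 0.05, PVR and LGALS9 among them. DESeq2's Wald test and edgeR's exact test each called 1 of the 9 lower, LGALS9, where they called 1.79% and 1.72% of tested genes lower. The study took as downregulated the genes with a P of at most 0.05 whose log2 fold change did not exceed -1. With that P read as unadjusted, and the criterion mirrored here for higher genes, LGALS9 and PVR were lower, or 2 of 9, where 4.41% of tested genes were. No ligand met it in the higher direction, where 2.92% of tested genes did. Both USP12 libraries lay below both control libraries for 6 of the 9, namely CD274, LGALS9, CD47, PVR, ULBP2 and NT5E (5 of 8 without CD274), against 17.0% of tested genes, and above for 0 of the 9, against 19.5%. Without control 1, the USP12 libraries lay below control 2 for 6 of the 9 and above it for MICA and MICB, where 40.2% and 41.5% of tested genes did so, and without control 2 they lay below control 1 for 9 of the 9, against 42.3%. Without USP12 library 1 or 2 the count was 6 and 7 of the 9, against 24.8% and 24.5%. With only 2 libraries a group, an exact permutation test of a single gene cannot go below p = 0.333.

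**Figure D1:**
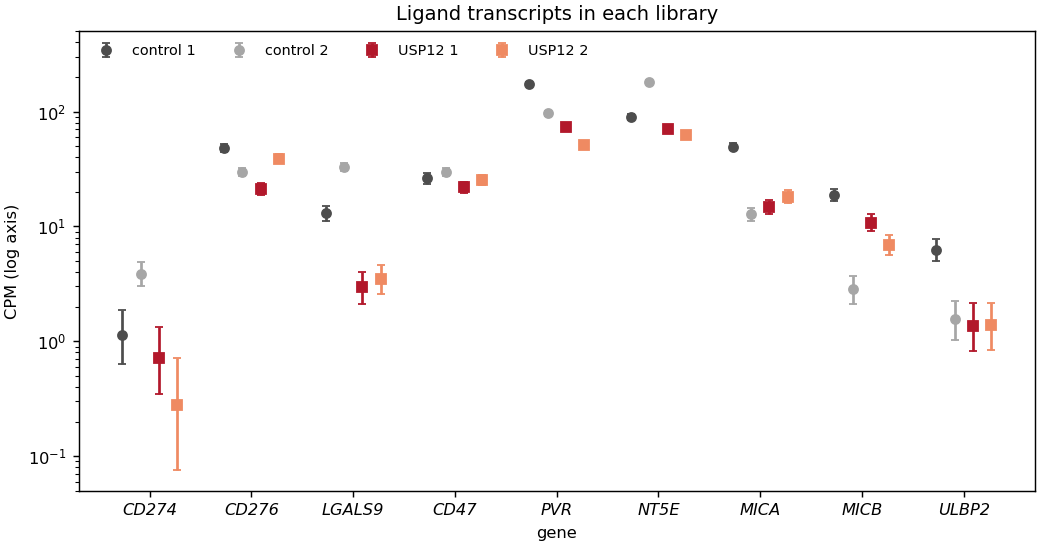
CPM (log axis) of the 9 ligand genes that were tested, in control libraries 1 and 2 (circles) and USP12 libraries 1 and 2 (squares), with bars for 95% Poisson intervals, which cover counting error only. LGALS9 sits at 13.0 and 32.7 CPM in the controls and at 2.95 and 3.46 CPM with USP12, while the MICA and MICB controls lie on both sides of the USP12 values.

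Levels between genes were compared as CPM per kilobase of exon, with the exons of all annotated transcripts of a gene merged. NT5E had the highest level, with a mean of 29.8 in the controls and 14.7 in the USP12 libraries, followed in the controls by PVR at 12.9, MICA at 8.11 and CD276 at 7.10. The NT5E controls did not overlap those of PVR, whereas MICA, from 3.32 to 12.9, overlapped both PVR and CD276. LGALS9 at 4.0, MICB at 3.85, CD47 at 3.41 and ULBP2 at 2.93 overlapped one another in the controls and cannot be ordered beyond their spread. Each of these also overlapped MICA, and LGALS9 and MICB overlapped CD276, so their order against those genes is likewise unsettled. CD274 was the lowest of the tested genes, at 0.610 in the controls and 0.121 in the USP12 libraries.

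Among the ligands of T-cell receptors, LGALS9 and CD274 had the lowest fold changes, and these cannot be ordered within their errors. LGALS9 (ENSG00000168961, chr17:27629798-27649560, plus strand) encodes galectin-9, a sugar-binding protein whose partners include the receptor TIM-3. It was at 13.0 and 32.7 CPM in control libraries 1 and 2 and at 2.95 and 3.46 CPM in USP12 libraries 1 and 2. Both USP12 libraries were low and close together, and the groups did not overlap. The means were 22.9 ± 13.9 and 3.21 ± 0.362 CPM (SD, n = 2 each), a log2 fold change of -2.83 with an SE of 0.62 and an adjusted p of 0.28 in edgeR's quasi-likelihood test. LGALS9B and LGALS9C are near-identical copies, so the share of fragments that could be given to LGALS9 alone is uncertain. LGALS9B had 47 and 298 counts in the controls and 117 and 70 with USP12, and LGALS9C had 20, 75, 72 and 41 in the same order. Neither copy was lower in both USP12 libraries than in both controls. A protein-coding readthrough gene also overlaps LGALS9 on the same strand. Against control 1 alone the log2 fold change was -2.01, and against control 2 alone it was -3.35.

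CD274 (ENSG00000120217, chr9:5450503-5470566, plus strand), the ligand of PD-1, rested on few counts. It had 15 and 70 counts in the controls, or 1.14 and 3.88 CPM, and 10 and 4 counts with USP12, or 0.720 and 0.277 CPM. The USP12 libraries were the lower pair, but the 95% Poisson interval of USP12 library 1, from 0.345 to 1.32 CPM, overlapped that of control 1, from 0.635 to 1.87 CPM, so a difference between these libraries was not detectable at this depth. The log2 fold change was -2.32 with an SE of 0.97 and an adjusted p of 0.664 in the same edgeR test. CD274 passed the filter only through the control libraries. Against control 1 alone the log2 fold change was -1.17, and against control 2 alone it was -2.95. PDCD1LG2 (ENSG00000197646, chr9:5510531-5571282, plus strand), which encodes the second PD-1 ligand PD-L2, had 0 counts in all 4 libraries, which allows up to 0.227 and 0.166 CPM in the controls and 0.216 and 0.208 CPM with USP12. A long noncoding RNA gene lies opposite both genes.

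CD276 (ENSG00000103855, chr15:73683966-73714514, plus strand) encodes B7-H3, a B7-family ligand. It was at 48.0 and 29.9 CPM in the controls and 21.2 and 38.9 CPM with USP12. The groups overlapped, because USP12 library 2 lay between the controls. The log2 fold change was -0.37 with an SE of 0.50 and an adjusted p of 0.951 by edgeR's quasi-likelihood test, and against control 2 alone it was 0.01.

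CD47 and PVR speak mainly to macrophages and to natural killer cells. CD47 (ENSG00000196776, chr3:108043091-108091862, minus strand) gives the signal that restrains engulfment through SIRPα. It was at 26.3 and 29.8 CPM in the controls and 22.0 and 25.4 CPM with USP12. The USP12 libraries lay just below the controls, and USP12 library 2 was closer to control 1 than to USP12 library 1. The log2 fold change was -0.24 with an SE of 0.41 and an adjusted p of 0.964 by the same test. CD47 also had the smallest spread of the 9 within the control pair, a log2 ratio of 0.18.

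PVR (ENSG00000073008, chr19:44643798-44666162, plus strand) encodes CD155, which binds the activating receptor CD226 and the inhibitory receptor TIGIT. It was at 173 and 96.8 CPM in the controls and 73.1 and 50.9 CPM with USP12. All 4 values were well above the floor, and the highest USP12 value lay below the lowest control value. The means were 135 ± 53.6 and 62.0 ± 15.7 CPM (SD, n = 2 each), and the log2 fold change was -1.12 with an SE of 0.44 and an adjusted p of 0.636 by edgeR's quasi-likelihood test. It was -0.64 against control 2 alone, which no longer reached the study's size, and -1.46 against control 1 alone. CEACAM19, which overlaps PVR on the same strand, had 81 and 236 counts in the controls and 242 and 235 with USP12, and so did not follow it.

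The 3 NKG2D ligands were all highest in control 1. MICA (ENSG00000204520, chr6:31399784-31415315, plus strand) was at 49.6 and 12.8 CPM in the controls and 14.8 and 18.2 CPM with USP12. MICB (ENSG00000204516, chr6:31494881-31511124, plus strand) was at 18.8 and 2.83 CPM in the controls and 10.8 and 6.93 CPM with USP12. In both genes the USP12 libraries lay between the controls. The log2 fold changes were -0.92 (SE 0.69, adjusted p of 0.898) for MICA and -0.28 (SE 0.88, adjusted p of 0.979) for MICB in edgeR's quasi-likelihood test. Against control 2 alone they were 0.37 and 1.65, and against control 1 alone -1.58 and -1.07, so the direction depends on which control is used.

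ULBP2 (ENSG00000131015, chr6:149942014-149949235, plus strand), a GPI-anchored NKG2D ligand, was at 6.28 and 1.55 CPM in the controls and 1.37 and 1.39 CPM with USP12. The USP12 libraries lay below both controls, but only narrowly below control 2, with 28 counts there and 19 and 20 with USP12. The log2 fold change was -1.5 with an SE of 0.84 and an adjusted p of 0.83 by edgeR's quasi-likelihood test. It was -0.17 against control 2 alone and -2.17 against control 1 alone.

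NT5E (ENSG00000135318, chr6:85449584-85495791, plus strand) had the most counts of the 10 genes in control 2. It was at 89.1 and 181 CPM in the controls and 70.3 and 62.9 CPM with USP12. The groups did not overlap, and control 1 lay closer to the USP12 libraries than to control 2. The means were 135 ± 64.9 and 66.6 ± 5.21 CPM (SD, n = 2 each), a log2 fold change of -1.02 with an SE of 0.45 and an adjusted p of 0.711 in edgeR's quasi-likelihood test. It was -0.41 against control 1 alone and -1.44 against control 2 alone.

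**Figure D2:**
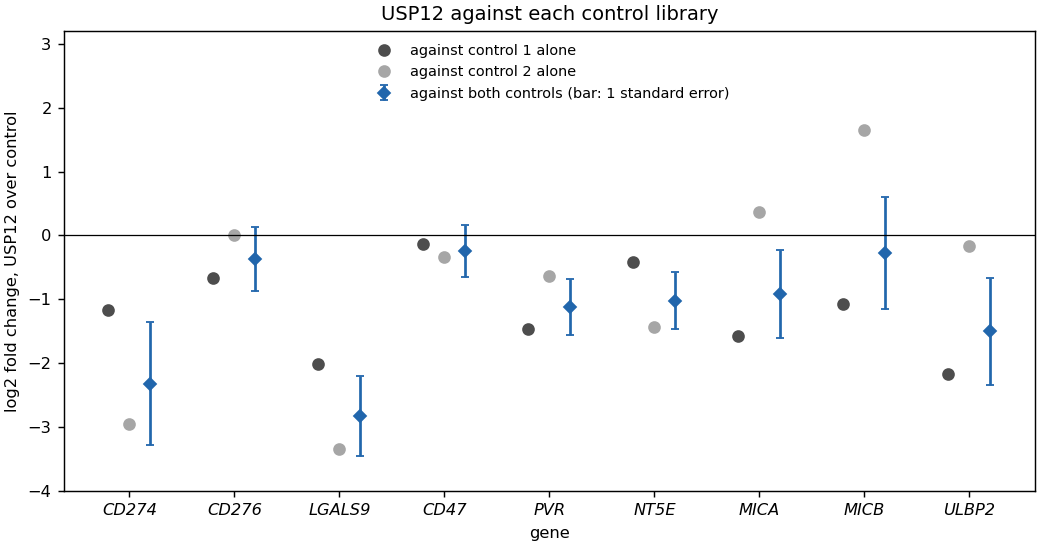
Log2 fold change of USP12 over control for the 9 tested ligands, against control 1 alone, control 2 alone and both controls (diamonds, bars of 1 standard error). MICA and MICB lie above 0 against control 2 alone, at 0.37 and 1.65, and below 0 against control 1 alone, while LGALS9 is at -2.01 or lower in each.

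Calls by edgeR's quasi-likelihood test also depended on the control used. Without control 1, CD274, LGALS9 and NT5E reached adjusted p of 0.0423, 0.00153 and 0.00794, where 5.89% of tested genes, or 897, were called lower. Without control 2, LGALS9, PVR, MICA and ULBP2 reached adjusted p of 0.0117, 0.0137, 0.00903 and 0.0188, where 16.7% of tested genes, or 2542, were called lower. LGALS9 was the only ligand in both sets. With USP12 library 1 left out, or library 2, none of the ligands was called, and with those fits included the adjusted p of each of the 9 ran up to 1 over the alternatives.

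The controls split the ligands. MICB, MICA, ULBP2, PVR and CD276 were higher in control 1, with log2 ratios of control 2 over control 1 of -2.67, -1.94, -1.93, -0.83 and -0.68. CD274, LGALS9 and NT5E were higher in control 2, at 1.66, 1.32 and 1.02. CD47 differed little. Between the USP12 libraries the same ratio ran from -1.05 for CD274, on 10 and 4 counts, to 0.88 for CD276. The summed CPM of the 10 genes was 425 and 391 in the controls and 217 and 208 with USP12, so the sum was steadier within each group than most of its parts. Its 2 largest parts moved in opposite directions between the controls, PVR from 173 to 96.8 CPM and NT5E from 89.1 to 181 CPM.

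**Figure D3:**
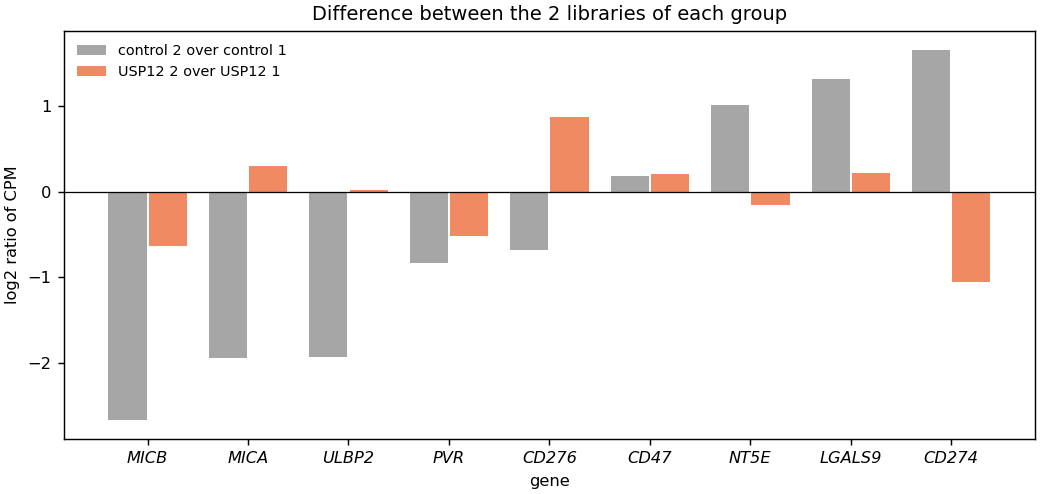
Log2 ratio of CPM between the 2 libraries of each group for the 9 tested ligands, control 2 over control 1 in grey and USP12 2 over USP12 1 in orange. The control bars run from -2.67 for MICB to 1.66 for CD274, and the USP12 bars from -1.05 to 0.88.

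Interferon-stimulated genes differed between the same libraries. Of 16 in the list, 15 were tested and all 15 lay below 0, with a median log2 fold change of -3.38. They met the study's criterion in 12 cases, IFIT1, IFIT2, ISG15, MX1, OAS1, OAS2, OAS3, IFI6, IFI44, IFIH1, IRF7 and BST2, but none reached an adjusted p under 0.05 by edgeR's quasi-likelihood test. IFI6 was at 130 and 303 CPM in the controls and 7.85 and 4.85 CPM with USP12, a log2 fold change of -5.09. Without control 2, IFIT2 and IFI44 had log2 fold changes of 0.12 and 0.31, and OAS3, MX1 and IFIH1 of -0.44, -0.95 and -0.96. BST2 passed the filter only through the controls. OAS1, an antiviral enzyme, was at 349 and 386 CPM in the controls and 59.4 and 49.0 CPM with USP12. The list summed to 734 and 2570 CPM in the controls and 225 and 217 CPM with USP12, and its median log2 ratio of control 2 over control 1 was 3.14. CD274, LGALS9 and NT5E were likewise higher in control 2. MICA, MICB and ULBP2 were higher in control 1, where the epithelial, leukocyte and fibroblast and endothelial lists also had their highest sums. The part of these differences in the ligand values was not tested.

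The other checkpoint ligands numbered 30, of which 21 were tested. Of these, 16 lay below 0 and 5 above, with a median log2 fold change of -0.61. VTCN1, TNFSF9 and CEACAM1 were lower by the study's criterion and CD24 was higher, and none passed at an adjusted p under 0.05 by edgeR's quasi-likelihood test. VTCN1, or B7-H4, had 43 and 50 counts in the controls and 2 and 2 with USP12, which is 21.1-fold lower with a counting interval of 7.96 to 78.9, and it passed the filter only through the controls. CEACAM1, a ligand of itself and of other CEACAM proteins, was at 127 and 121 CPM in the controls and 31.7 and 33.4 CPM with USP12. Its groups were far apart and each was tight, with a log2 fold change of -1.93, an SE of 0.36 and an adjusted p of 0.21. TNFSF9, the ligand of 4-1BB, was at 41.5, 9.36, 6.48 and 7.27 CPM in the order control 1, control 2, USP12 1 and USP12 2, so control 1 alone was high, and its log2 fold change of -1.88 was -0.45 without control 1. CD24, which binds Siglec-10 on macrophages, was at 57.4, 78.7, 381 and 350 CPM in that order, a log2 fold change of 2.42 with an SE of 0.37, and it has near-identical pseudogenes that could share its reads.

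The other NKG2D ligands and the proteases that shed them numbered 10, with 8 tested, 6 below 0 and 1 above, and a median of -0.36. RAET1E and RAET1G met the criterion in the lower direction and none in the higher. RAET1G was at 16.2 and 6.10 CPM in the controls and 0.288 and 0.831 CPM with USP12, on 4 and 12 counts. RAET1E was at 4.62 and 4.65 CPM in the controls and 1.01 and 0.762 CPM with USP12. Both pairs of groups were clear of each other, with log2 fold changes of -4.29 (SE 0.86) and -2.38 (SE 0.64) and adjusted p of 0.24 and 0.352 in edgeR's quasi-likelihood test. ULBP1 was at 5.22 and 26.1 CPM in the controls and 10.7 and 14.2 CPM with USP12, so control 2 was its highest library and control 1 its lowest, the reverse of MICA and MICB. Of the proteases, MMP14 had a log2 fold change of 1.21 and ADAM9 of -0.53 (-0.14 without control 2), and neither met the criterion.

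The adenosine pathway list held 18 genes, of which 13 were tested, 9 below 0 and 4 above, with a median of -0.33. ENTPD2, ADORA1 and DPP4 were lower by the criterion, and ADORA2B was higher. ADORA1 and DPP4 passed the filter only through the controls, where they are high. ENTPD2, an ectonucleotidase that acts before NT5E on extracellular ATP, was at 43.8 and 12.3 CPM in the controls and 4.68 and 1.11 CPM with USP12, with a log2 fold change of -3.27 that was -2.09 without control 1. DPP4, a surface peptidase that binds adenosine deaminase, was at 5.75 and 1.05 CPM in the controls and 0.288 and 0.416 CPM with USP12, and its log2 fold change of -3.23 was -1.56 without control 1. ADORA2B, an adenosine receptor, was at 9.46 and 9.86 CPM in the controls and 23.5 and 21.6 CPM with USP12, a log2 fold change of 1.22 with an SE of 0.43. ADORA1 was at 3.03 and 1.11 CPM against 0.504 and 0.139 CPM. The adjusted p of these 4 genes ran from 0.398 to 0.602 in edgeR's quasi-likelihood test.

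Regulators of PD-L1 and CD47 numbered 24, with 23 tested, 14 below 0 and 9 above, and a median of -0.12. MYC alone met the criterion, at 40.4 CPM in control 1 and 2.16, 2.45 and 2.70 CPM in the other 3 libraries, so that its log2 fold change of -3.04 became 0.25 against control 2 alone. STAT2 and IRF9, which carry the type I interferon signal, had log2 fold changes of -0.87 (SE 0.37) and -1.05 (SE 0.47), and THBS1, a CD47 ligand, had 1.03 (SE 0.47). Without control 2, IRF9 was at -0.48 and THBS1 at 1.64, and without control 1, THBS1 was at 0.61. Of the 17 receptors that read such ligands on immune cells, 8 had no count in any library and 4 were tested. SIRPA, the receptor of CD47, was at 59.8 and 50.3 CPM in the controls and 103 and 103 CPM with USP12, with a log2 fold change of 0.91. TNFRSF9 and LAG3 had log2 fold changes of -1.58 and 1.59, each on low counts. KLRK1, which encodes NKG2D itself, had 438 and 905 counts in the controls and 0 in both USP12 libraries, at least 193-fold lower against a floor of 3 counts per library, and it too passed the filter only through the controls. KLRC4-KLRK1 overlaps it.

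**Figure D4:**
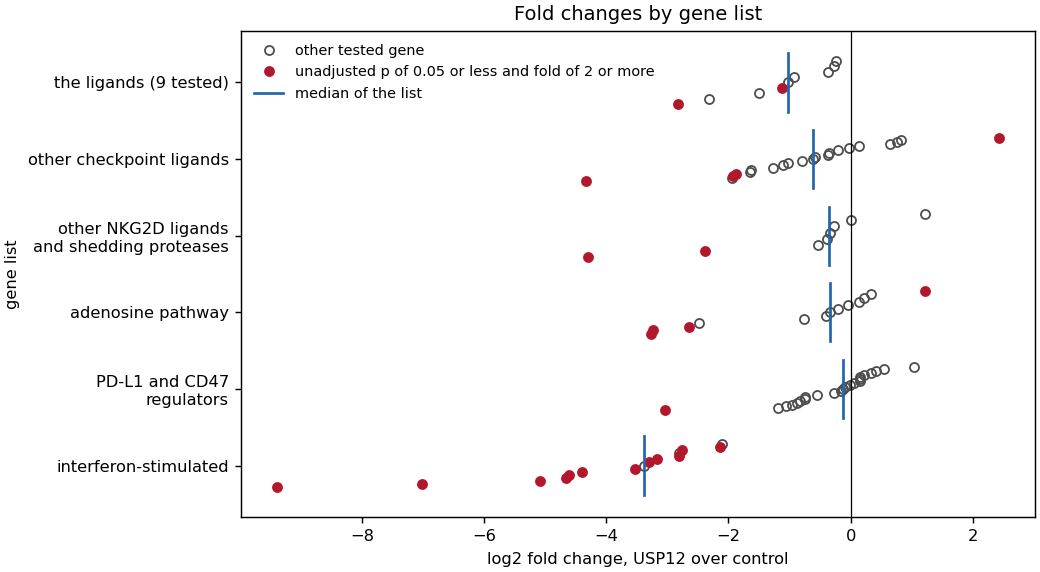
Log2 fold change, USP12 over control, of each tested gene in the ligand list and 5 related lists, with filled points for genes that met the study's criterion, and a blue bar at each median. The medians are -1.02 for the ligands, -0.61, -0.36, -0.33 and -0.12 for the next 4 lists and -3.38 for the interferon-stimulated genes.

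LGALS9 had the widest range of log2 CPM over the 4 libraries among the 9 ligands, 3.41. The 5 tested genes whose centred log2 CPM lay nearest to it, among 15221 compared over 4 libraries, were C9orf152, PAX7, DDC, CRAMP1 and GFY, at Euclidean distances from 0.272 to 0.382. These 5 were picked for likeness to LGALS9 over the same 4 libraries, so their directions follow from the choice. Their log2 fold changes ran from -2.46 to -3.16, and each was higher in control 2 than in control 1.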

How the data were processed

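RNA of 4 A549 libraries, 2 control and 2 with USP12, was sequenced with a stranded mRNA kit. The authors trimmed reads and removed ribosomal RNA with Seqtk, mapped them to GRCh38 with HISAT2 2.0.4 and counted uniquely mapped fragments per gene with StringTie 1.3.0, and the deposited values are these raw counts. Which annotation release was used, and whether counting used strand, are not given in the sources used here, so overlapping genes are uncertain. The counts of 50868 genes were tested in R 4.3.3 with edgeR 4.0.16 (TMM, filterByExpr, quasi-likelihood test, no block, Benjamini-Hochberg adjustment over 15222 genes). CPM used TMM-scaled totals, and log2 CPM a prior count of 2. Each SE is approximate, from the fold change and its F statistic. The level that a count of 0 allows was set at 3 counts, and intervals cover counting error only. The alternatives were DESeq2 1.42.0, edgeR's exact test, other filters and scaling, a replicate block, and leaving out each library. Positions came from GENCODE 44, which held 99.2% of tested genes, and promoters from RefSeq.

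The members and lists were chosen with earlier results of these data known. Named were USP12, all 10 ligands, every gene of the 6 related lists that met the study's criterion (up to 4 by smallest p where fewer did), and the 5 genes most like the ligand of widest range. KRT19, KRT7, CDH1, CDH5, PECAM1, COL1A1, ULBP1, LGALS9B, LGALS9C, CEACAM19 and KLRC4-KLRK1 were added after their values were seen.

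The result of 1 marker gene is not reported here.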

Additional observations from a re-analysis of the deposited data

How the results depend on the processing

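The direction and the side of the threshold stayed the same for 264 single-gene values under the alternatives; 137 passed an adjusted p of 0.05 and 9 reversed. Genes at an adjusted p under 0.05 numbered 361 lower and 167 higher with no filter, 273 and 133 with DESeq2's Wald test, 262 and 167 with the exact test, and 251 and 153 with the replicate block, against 0 and 0. Leaving out 1 library gave 21 to 2542 lower and 15 to 2475 higher. The study's criterion was met by 671 genes lower and 445 higher, 1173 and 688 with no filter, and 274 to 2049 and 171 to 2371 without 1 library. Of the ligands, LGALS9 alone passed with no filter (adjusted p = 0.00177), DESeq2 (0.000934), the exact test (0.0054) and the block (0.00575), or 1 each; its adjusted p over 10 alternatives ran from 0.000934 to 1. From 0 to 4 passed without 1 library, 3 without control 1 and 4 without control 2, fits in which the lone library was assumed to vary like the other group. The ligands lower by the criterion numbered 4 with no filter, 4 with the exact test and 1 to 5 without 1 library, and those higher 0 to 1. By the exact test, 804 of the 15222 tested genes were lower by the criterion. The number of genes tested with no filter is not given here, so the ligand count there has no share beside it. The ligand counts without 1 library belong to fits whose totals over all genes also varied widely, as given above. The median of the ligands ran from -1.17 to -0.33 without 1 library. An alternative chosen after seeing the data, the 6 ligands with USP12 below control, gave 6 to 9 without 1 library, where 24.5% to 42.3% of tested genes did so; without control 1, MICA and MICB lay above.

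Values that reversed were MICB (0.22 with the replicate block, -1.07 to 1.65 without 1 library), and, without 1 library, MICA (-1.58 to 0.37), CD276 (-0.87 to 0.01), MYC (-3.96 to 0.25), IFIT2 (-3.71 to 0.12) and IFI44 (-4.48 to 0.31). The cause was not tested. Same-numbered libraries share only a number: their deviations correlated at 0.152 over 2 pairs. Prior degrees of freedom were 4.15, and infinite with the block and with no filter, so in those the spread of each gene had no weight of its own. Depth limits CD274, ULBP2 and PDCD1LG2.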
